A study of Mus musculus with 5 samples.

Results

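Acute-phase and metallothionein genes of the atherosclerotic mouse aorta were followed across its cell types. The 7 members were Saa3, Lcn2, Hp, Serpina3n, Serpina3g, Mt1 and Mt2, of 16498 genes in the table. They were selected on measured values of these same libraries, namely their levels across cell types and their differences between the genotypes. Their values are therefore given as a description, with no p-value.

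The libraries were droplet 3′ single-cell RNA libraries of live (DAPI-sorted) cells of the aortic arch. All mice carried Apoe-/-, which raises plasma cholesterol, and were kept on a normal chow diet for 28 weeks. The 2 control libraries (Apoe-/- replicates 1 and 2) came from Oasl1+/+Apoe-/- mice, and 3 libraries carried the label Oasl1-/-Apoe-/-, a germline loss of an interferon-induced gene of the oligoadenylate synthetase-like family. Mice were pooled (n = 6 in the design, not stated per library), so the replicate is a library of pooled animals, and where its animals came from is not given. Spread between libraries may thus be partly technical.

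The libraries held 3212 to 4338 cells, with a median of 4495 to 5186.5 unique molecular identifiers (UMIs, counts of captured transcripts) per cell. Levels are given as CP10K, the UMIs of a gene per 10000 UMIs of the cell, averaged over the cells of a library. Oasl1 itself had only 27 and 16 UMIs in the controls, but 299, 257 and 315 in the libraries labelled Oasl1-/-Apoe-/-. The deletion is described as covering the promoter and exon 2. The 3′ tags lie outside it and do not show it directly. The Oasl1 transcript was nevertheless higher in the libraries labelled as lacking the gene, and the reason was not tested. Whether labels were exchanged was not tested. The labels are used as given, and every direction below rests on them. Haemoglobin and other erythroid markers were lower within each of the 6 gates compared between the genotypes in the libraries labelled Oasl1-/-Apoe-/-, for example 1.57 to 1.62 against 0.427 to 0.544 CP10K summed in the smooth muscle gate.

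Acute-phase genes are induced by interleukin-6, interleukin-1 and tumour necrosis factor through STAT3, C/EBP and NF-kB factors. The liver is their main source in the blood, but fibroblasts, endothelium and leukocytes can make several of them locally. Metallothioneins are small cysteine-rich proteins that bind zinc and copper, and their genes respond to metals through the factor MTF1, and to glucocorticoids and oxidants.

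Saa3 encodes a serum amyloid A made largely outside the liver, and Lcn2 a lipocalin that withholds iron-loaded siderophores from bacteria. Hp encodes haptoglobin, which binds free haemoglobin. Serpina3n and Serpina3g encode serine protease inhibitor family proteins, of which the first is secreted and inhibits granzyme B and the second acts inside cells on cathepsins. On GRCm38 (GENCODE), Lcn2 lies at chr2:32384633-32388252 and Saa3 at chr7:46711998-46715700, both on the minus strand. Mt2 (chr8:94172664-94173568) and Mt1 (chr8:94179082-94180327) are neighbours on the plus strand, with 5514 bases between them, and Hp lies on the same chromosome at chr8:109575128-109579172, minus strand. Serpina3g (chr12:104236245-104241939) and Serpina3n (chr12:104406729-104414329) belong to a cluster of close copies on the plus strand, so reads could be split among the copies and their levels carry that uncertainty.

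The sequences just upstream of the metallothionein starts are shown because metal response elements near the start are the best known control of these genes. They were taken from RefSeq (GRCm38.p6) and end before the first annotated exon base. Capitals mark matches to TGCACNC or TGCGCNC on either strand. The windows are chr8:94172368-94172617 for Mt2 and chr8:94178839-94179081 for Mt1, both on the plus strand.
Mt2: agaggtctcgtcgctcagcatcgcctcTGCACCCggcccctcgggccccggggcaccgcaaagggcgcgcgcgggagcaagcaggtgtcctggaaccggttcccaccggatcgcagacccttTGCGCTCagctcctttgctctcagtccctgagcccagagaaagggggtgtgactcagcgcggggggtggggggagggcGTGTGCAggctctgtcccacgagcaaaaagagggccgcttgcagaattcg
Mt1: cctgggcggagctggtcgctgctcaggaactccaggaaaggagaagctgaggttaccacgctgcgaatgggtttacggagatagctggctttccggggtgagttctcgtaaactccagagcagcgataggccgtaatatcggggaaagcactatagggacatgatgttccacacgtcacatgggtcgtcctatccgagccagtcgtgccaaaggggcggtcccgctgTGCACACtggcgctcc
The Mt2 window held 3 matches and the Mt1 window held 1. The Mt1 window was cut to 243 bases because an annotated exon overlapped it. Bases past the first annotated start were not searched, so the counts hold for these windows only. Of 32851 RefSeq promoters searched over the 250 bases before the start, 21.4% held at least 1 match and 1.26% held at least 3.

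The upstream sequences of the serpin pair and of Saa3 are shown because the pair differed in the cells that used them and Saa3 was the most cell-restricted member. Capitals mark matches on either strand to TTNNGNAA (C/EBP), GGG, any 3 bases and TTCC (NF-kB) or TTCNNNGAA (STAT). The windows are chr12:104406458-104406707 (Serpina3n, plus), chr12:104235897-104236146 (Serpina3g, plus) and chr7:46715701-46715926 (Saa3, minus).
Serpina3n: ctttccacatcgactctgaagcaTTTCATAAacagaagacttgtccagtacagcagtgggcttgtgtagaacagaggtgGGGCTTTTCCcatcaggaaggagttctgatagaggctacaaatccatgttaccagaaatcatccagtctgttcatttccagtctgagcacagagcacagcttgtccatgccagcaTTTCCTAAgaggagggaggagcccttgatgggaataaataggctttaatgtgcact
Serpina3g: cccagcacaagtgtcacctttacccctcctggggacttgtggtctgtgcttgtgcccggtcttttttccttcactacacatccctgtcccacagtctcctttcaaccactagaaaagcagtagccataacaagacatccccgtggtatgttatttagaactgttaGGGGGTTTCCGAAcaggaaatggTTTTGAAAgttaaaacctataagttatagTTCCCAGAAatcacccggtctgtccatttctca
Saa3: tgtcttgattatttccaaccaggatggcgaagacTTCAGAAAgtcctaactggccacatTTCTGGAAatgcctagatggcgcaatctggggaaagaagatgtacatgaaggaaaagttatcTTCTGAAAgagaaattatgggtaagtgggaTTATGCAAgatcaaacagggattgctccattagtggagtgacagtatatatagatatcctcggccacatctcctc
Saa3 held 4 C/EBP matches, and each serpin gene held 2 C/EBP matches and 1 NF-kB match, the latter overlapping a C/EBP match in Serpina3g. Serpina3g also held 1 STAT match. Among all promoters 36.8% held a C/EBP match (2.61% held at least 3), 4.65% an NF-kB match and 7.02% a STAT match. The serpin windows aligned over 171 columns with 64.9% identical bases. The Lcn2 window lay within an annotated exon of the gene and is not shown, and Hp had no entry. A match is a string of letters and was not tested as a binding site.

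Cells were assigned to types by fixed marker lists, so each gate is a set of X-like cells and not the study's own annotation. Gates with at least 20 cells in every library held 10619 smooth muscle-like, 3153 macrophage-like, 1378 endothelial-like, 1035 fibroblast-like, 693 NK/T-like and 158 dendritic-like cells. Smaller gates (161 monocyte-like, 119 B-like and 98 neutrophil-like cells) are described only. Cartilage-like (25), erythroid-like (74), mesothelial-like (27), lymphatic-like (14) and glial-like cells (4) were too few to compare, and 702 cells stayed ungated. The gates had at least 3 own markers among their 10 top genes by fold, and Saa3 was itself a top gene of the fibroblast gate. Cell shares differed between the genotypes, with fibroblast-like cells at 2.92% and 2.74% of the Apoe-/- libraries against 7.52%, 8.38% and 8.43%. Their median UMIs differed too, at 4140 and 4429 against 6984, 6319 and 6742. Of the cell barcodes, 165 occurred in more than 1 library (331 cells).

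Fibroblast-like cells had the highest mean level of Saa3, Serpina3n, Mt1 and Mt2 among the 9 types compared. Neutrophil-like cells had the highest mean of Lcn2 and Hp, and NK/T-like cells that of Serpina3g. The levels that follow are means over 5 libraries with SD.

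**Figure D1:**
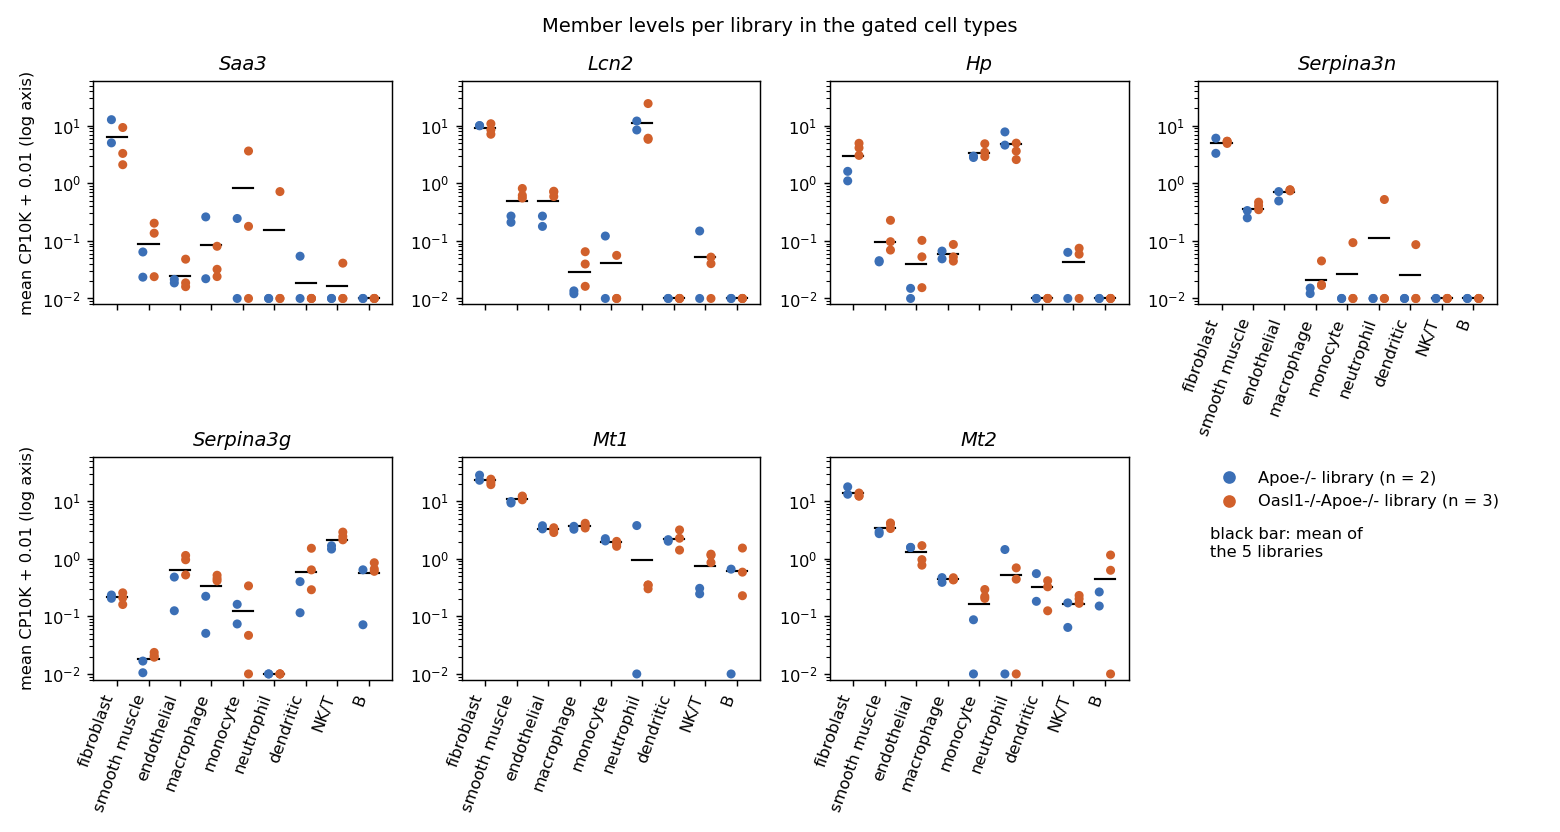
Mean CP10K of each member (y axis, log scale, 0.01 added so that zeros can be drawn) in 9 gated cell types (x axis), 1 point per library with Apoe-/- in blue and those labelled Oasl1-/-Apoe-/- in orange, and the mean of the 5 libraries as a black bar. Lcn2 and Hp sit high in both fibroblast-like and neutrophil-like cells, whereas Serpina3g is highest in NK/T-like cells and Mt1 is above 1 CP10K in all libraries of 6 types.

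Saa3 averaged 6.51 ± 4.45 CP10K in fibroblast-like cells. The next type, monocyte-like cells, stood at 0.809 ± 1.59, and its range of 0 to 3.64 overlapped that of fibroblast-like cells (2.10 to 12.8) because 1 library was high. In B-like cells Saa3 was listed at 0 in all 5 libraries. By UMIs, fibroblast-like cells held 4614 of 5609 (82.3%), and smooth muscle-like cells 599 (10.7%).

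Lcn2 averaged 11.4 ± 7.69 CP10K in neutrophil-like and 9.32 ± 1.49 in fibroblast-like cells, and these neighbours overlapped. Endothelial-like (0.485 ± 0.255) and smooth muscle-like cells (0.484 ± 0.251) came next and did not overlap with fibroblast-like cells. In dendritic-like and B-like cells it was listed at 0 in each library (95% Wilson intervals of the positive share 0 to 2.37% and 0 to 3.13%). A UMI of Lcn2 was seen in 38.8% of fibroblast-like cells (95% Wilson interval 35.9 to 41.9%, median depth 6041 UMIs), against 0.433% of NK/T-like cells (0.147 to 1.27%, median depth 1761 UMIs), taken as the background. At an equal depth of 1000 UMIs the shares were 22.1% and 0.312%.

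Hp averaged 4.73 ± 1.97 CP10K in neutrophil-like, 3.403 ± 0.857 in monocyte-like and 2.97 ± 1.63 in fibroblast-like cells. Haptoglobin is a known granule and monocyte product, and these 3 types overlapped with their neighbours in the order. The other 6 of the 9 types stayed below the range of fibroblast-like cells (1.10 to 4.96), the highest library being at 0.218 in smooth muscle-like cells. Outside these 9, the 25 cartilage-like cells averaged 4.08 CP10K, from 6 positive cells that were all in libraries labelled Oasl1-/-Apoe-/-. Neutrophil-like cells had a median of 971 UMIs and 17 to 22 cells per library, so their levels are imprecise.

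The serpin pair divided between stroma and lymphocytes. Serpina3n averaged 5.01 ± 1.04 CP10K in fibroblast-like cells, 0.689 ± 0.116 in endothelial-like and 0.354 ± 0.0824 in smooth muscle-like cells, with no overlap between these neighbours. In NK/T-like cells it was listed at 0 in all libraries. Serpina3g averaged 2.12 ± 0.578 in NK/T-like cells and did not overlap there with the next type, endothelial-like cells (0.638 ± 0.407). Dendritic-like (0.586 ± 0.555), B-like (0.559 ± 0.294), macrophage-like (0.323 ± 0.192) and fibroblast-like cells (0.204 ± 0.036) followed with overlapping ranges, and smooth muscle-like cells (0.00826 ± 0.005) lay lower.

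Mt1 was the most abundant member in most types, at 23.4 ± 3.37 CP10K in fibroblast-like and 10.8 ± 1.29 in smooth muscle-like cells. Those levels did not overlap, nor did the smooth muscle level with the next, macrophage-like cells at 3.67 ± 0.345. Mt2 followed the same order at the top, with 13.9 ± 2.28 in fibroblast-like, 3.45 ± 0.641 in smooth muscle-like and 1.31 ± 0.417 in endothelial-like cells. A UMI of Mt1 was present in 88.8% of fibroblast-like and 86.8% of smooth muscle-like cells, against 6.72% of B-like cells (3.45 to 12.7%, median depth 1367 UMIs).

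The proportion of the 2 metallothioneins depended on the cell type. The number of Mt1 UMIs per Mt2 UMI, for which 3′ tags need no correction for length, ranged from 1.48 to 1.76 over the 5 libraries in fibroblast-like cells. In smooth muscle-like cells it was 3.35 and 3.25 in the Apoe-/- libraries and 3.05, 2.88 and 2.74 in those labelled Oasl1-/-Apoe-/-. Macrophage-like cells spanned 8.14 to 11.1, above all libraries of the other 3 types with a value in each library. Of these, endothelial-like cells spanned 1.79 to 3.51. Dendritic-like cells, measured only over all libraries together, stood at 8.60 (172 Mt1 and 20 Mt2 UMIs), within the macrophage-like range. NK/T-like cells, measured the same way, stood at 5.52 (127 and 23 UMIs).

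The genes most like each member across the 9 types were named by Pearson correlation of log2 levels over 5318 genes, a description in which the points share libraries. For Saa3 they were C3 (r = 0.95), Tnfaip6 (0.92) and Tmem258 (0.90). For Hp they were Tnfaip6 (0.91), Prdx5 (0.89) and Sod2 (0.89), and for Lcn2 they were C1qtnf7 (0.94), Csf1 (0.93) and F3 (0.92). Serpina3n ran with Bok (0.98), Dcn (0.98) and Mmp2 (0.97), and Serpina3g with E2f4 (0.94), Tma7 (0.93) and Tapbpl (0.92). Mt1 ran with Rpn1 (0.96), Angptl2 (0.95) and Creb3 (0.94), and Mt2 with Nbl1 (0.97), Pde1a (0.97) and 9530068E07Rik (0.96). Among the members themselves, Mt2 and Serpina3n were the closest (0.94) and Serpina3g was negatively correlated with the other 6.

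Saa3 was carried by very few cells. Over all libraries 187 of 18260 cells held a UMI of it, and the 10 richest cells held 72.6% of its UMIs. Among fibroblast-like cells 55 of 1035 were positive (5.31%, Wilson interval 4.11 to 6.85%), with a median of 21 UMIs and a highest count of 1597. The share of positive fibroblast-like cells was alike in the libraries, 5.88% and 5.88% against 5.47%, 4.46% and 5.51%. Within each library the richest of these cells held 52.2 to 70.7% of the fibroblast Saa3 UMIs, so library means of Saa3 rest on single cells.

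**Figure D2:**
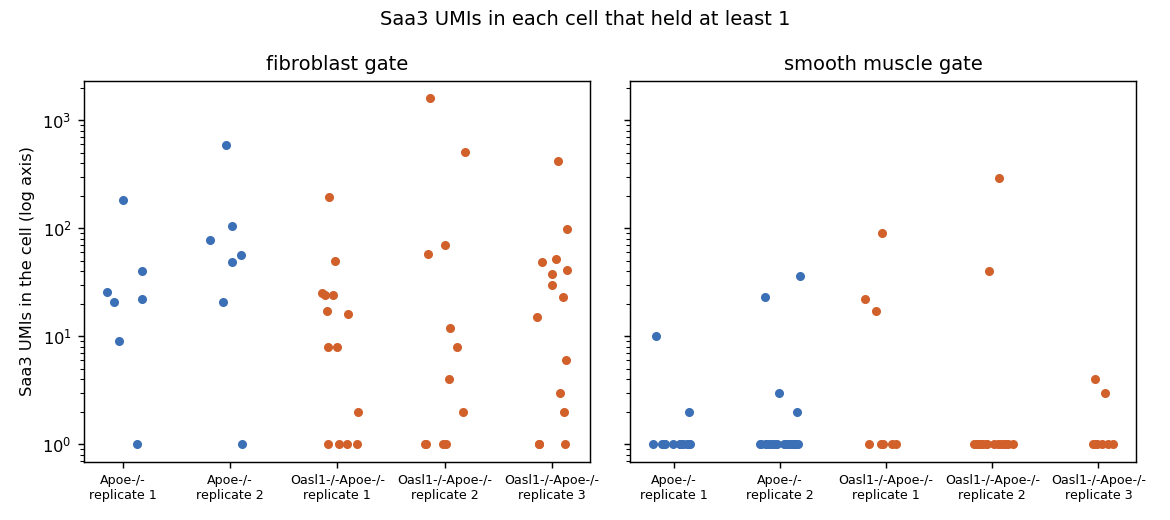
UMIs of Saa3 (y axis, log scale) in each cell with at least 1 such UMI, by library (x axis), in the fibroblast and smooth muscle gates, with Apoe-/- in blue and those labelled Oasl1-/-Apoe-/- in orange. Each library has a fibroblast-like cell far above the rest, up to 1597 UMIs in replicate 2 labelled Oasl1-/-Apoe-/-, and most positive smooth muscle-like cells hold a single UMI.

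The fibroblast-like cells with most Saa3 also carried Lcn2. Of 32 such cells with at least 10 UMIs of Saa3, 30 also had at least 10 UMIs of Lcn2, a level reached by 145 of the 1035 cells. In each library the Saa3-positive cells had more Lcn2 than the others, 84.5 against 5.35 CP10K and 104.9 against 4.17 in Apoe-/- replicates 1 and 2. In the libraries labelled Oasl1-/-Apoe-/- the values were 49.8 against 8.61, 47.1 against 5.26 and 58.3 against 5.61. Serpina3n (12.8 against 4.67 over all libraries), Mt1 (70.1 against 20.1) and C3 (19.7 against 8.74), the central complement component, were higher there as well. Median total UMIs were 6667 and 5996.5. Cells of a library share their source, and no test was made.

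For the genotypes, the question was how the members compared between Oasl1-/-Apoe-/- and Apoe-/- aortas within a type. Library means were fitted with limma as log2(CP10K + 0.05), a scale that understates changes of low genes. Genes with a mean of at least 0.05 CP10K entered, and the threshold was a Benjamini-Hochberg adjusted p under 0.05 over all of them. A log2 difference is Oasl1-/-Apoe-/- minus Apoe-/-, with the SE of the fit. Since the contrast was in view when the members were chosen, the counts below are set beside the share of all genes past the threshold, and nothing is read from them.

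**Figure D3:**
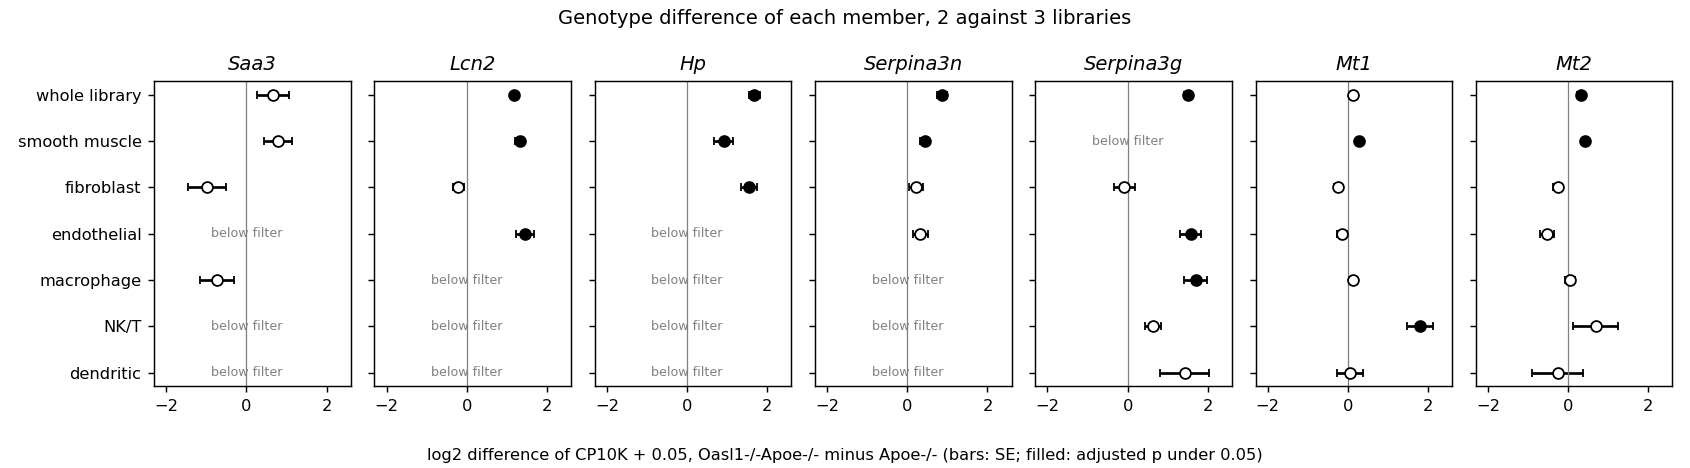
Log2 difference of each member (x axis, Oasl1-/-Apoe-/- minus Apoe-/-, CP10K + 0.05) in the whole library and 6 gated types (y axis), with the SE of the limma fit as bars and filled points for an adjusted p under 0.05. Lcn2 is to the right of 0 in smooth muscle-like and endothelial-like cells but not in fibroblast-like cells, where only Hp is past the threshold.

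Hp was the member that differed in fibroblast-like cells. Its levels were 1.10 and 1.61 CP10K in the Apoe-/- libraries and 4.96, 4.13 and 3.05 in those labelled Oasl1-/-Apoe-/-, a log2 difference of 1.54 ± 0.19. The groups did not overlap. UMIs of Hp were present in 11.8% and 14.3% of these cells against 32.03%, 29.4% and 24.6%, and at an equal depth of 1000 UMIs per cell in 6.84% and 6.90% against 19.3%, 16.2% and 11.3%. Monocyte and neutrophil markers, summed over the lists, did not move the same way in this gate (0.945 to 1.01 against 0.759 to 0.989 CP10K for 6 monocyte markers, and 1.09 to 1.56 against 0.705 to 0.841 for 6 neutrophil markers, with Retnlg and Cxcr2 at 0). Macrophage markers did, at 0.168 to 0.285 against 1.19 to 1.80 for 8 markers, of which 7 were higher without overlap. Cartilage markers were higher too, at 7.62 to 8.94 against 12 to 17.1 for 6 markers (2 higher without overlap, Matn1 at 0), and cartilage-like cells held Hp. The part of either in the Hp difference was not tested, while Hp in macrophage-like cells themselves was 0.0346 to 0.0768 CP10K.

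The other 6 members did not pass in fibroblast-like cells. Lcn2 stood at 10.0 and 10.1 CP10K in the Apoe-/- libraries against 10.9, 7.13 and 8.51 (log2 difference -0.21 ± 0.14). Saa3 stood at 5.04 and 12.8 against 2.10, 9.34 and 3.30 (-0.99 ± 0.47), values that rest on the few cells described above. These groups overlapped, as did those of Mt1 (23.2 and 28.5 against 19.5, 24.2 and 21.6), Mt2 (13.3 and 17.8 against 12.3, 13.9 and 12.4), Serpina3n (6.09 and 3.31 against 5.35, 5.39 and 4.93) and Serpina3g (0.196 and 0.225 against 0.201, 0.151 and 0.247). Of the 7 members 1 was past the threshold, higher, where 2.21% of 9426 genes were higher and 1.76% lower. The members' median log2 difference was -0.21, beside 0.02 over all genes.

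In smooth muscle-like cells 5 of the 6 members tested were past the threshold, all higher, where 5.93% of 9097 genes were higher and 2.58% lower. The median log2 difference of those tested was 0.61, beside 0.01 over all genes. Lcn2 stood at 0.260 and 0.201 CP10K against 0.609, 0.805 and 0.546 (1.32 ± 0.12). Hp stood at 0.0332 and 0.0353 against 0.0594, 0.218 and 0.0869 (0.92 ± 0.23), a value that fell to 0.54 without replicate 2 labelled Oasl1-/-Apoe-/-, and to 0.21 and not past the threshold with an offset of 0.5 in place of 0.05. Both genes were low in this gate and neither overlapped between the groups.

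Mt1 and Mt2 were abundant in smooth muscle-like cells and differed by less. Mt1 stood at 9.33 and 9.90 CP10K against 10.6, 11.99 and 12.3 (0.27 ± 0.06) and was not past the threshold without replicate 3 labelled Oasl1-/-Apoe-/- (0.23). Mt2 stood at 2.73 and 2.96 against 3.35, 4.02 and 4.19 (0.43 ± 0.07). Serpina3n stood at 0.327 and 0.242 against 0.399, 0.461 and 0.339 (0.43 ± 0.11) and was not past without Apoe-/- replicate 2 (0.25) or without replicate 1 (0.43) or 2 (0.33) labelled Oasl1-/-Apoe-/-. Saa3, the sixth member tested, overlapped between the groups (0.0135 and 0.0542 against 0.126, 0.193 and 0.0139). Serpina3g was below the filter. Without the filter on low values Lcn2 alone of these 5 members stayed past the threshold.

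Fibroblast and macrophage markers moved with these differences. In the smooth muscle gate all 8 fibroblast markers were higher without overlap, 13 to 13.2 against 17.1 to 18.6 CP10K summed, and 7 of 8 macrophage markers, 0.707 to 0.943 against 1.80 to 2.18. Most Lcn2, Hp and Serpina3n of the gate sat in the cells with a UMI of Lum, Pdgfra, Dpt, Serpinf1 or Col14a1. In such cells Lcn2 was 1.58 and 1.17 CP10K against 1.96, 2.75 and 2.18, and in the cells without, 84.8% and 84.2% of the Apoe-/- cells and 76.0 to 77.2% of the others, it was 0.0247 and 0.0181 against 0.209, 0.216 and 0.0301. The groups stayed apart in both sets for Lcn2, although in the second set replicate 3 labelled Oasl1-/-Apoe-/- lay near the controls. Hp overlapped in the cells without (0.00166 and 0.0142 against 0.0145, 0.0831 and 0.00906).

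Serpina3n overlapped in cells with the fibroblast markers (1.93 and 1.38 against 1.57, 1.85 and 1.27) and was at most 0.0546 in those without, where the groups overlapped too. Mt1 in cells without these markers was 8.67 and 9.22 against 9.72, 9.82 and 10.2, and Mt2 was 2.23 and 2.39 against 2.45, 2.58 and 2.59. Both metallothioneins kept their groups apart there, with smaller differences than in the whole gate. The split into these cells was made after the values were seen, and more UMIs in a cell raise its chance of showing a marker.

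**Figure D4:**
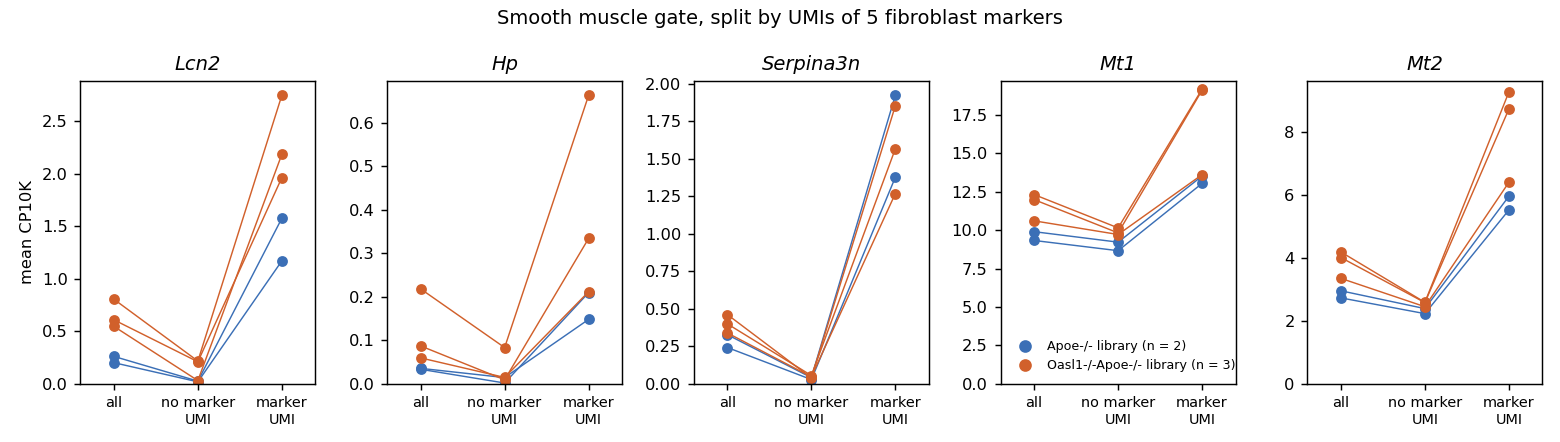
Mean CP10K (y axis, from 0) of 5 members in the smooth muscle gate per library, in all cells, in cells with no UMI of 5 fibroblast markers and in cells with at least 1 such UMI (x axis), with lines joining a library, Apoe-/- in blue and those labelled Oasl1-/-Apoe-/- in orange. Lcn2, Hp and Serpina3n are close to 0 in most libraries without marker UMIs, while Mt1 stays between 8.67 and 10.2.

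In endothelial-like cells 2 of 5 tested members were past the threshold, both higher, where 2.06% of 9430 genes were higher and 0.838% lower. The members' median log2 difference was 0.33, beside -0.01 over all genes. Lcn2 stood at 0.260 and 0.169 CP10K against 0.581, 0.697 and 0.720 (1.45 ± 0.22), with 3.73 to 4.78% of cells positive against 7.69 to 9.64%. Serpina3g stood at 0.472 and 0.115 against 0.515, 1.14 and 0.955 (1.58 ± 0.26), a value of 0.75 and not past the threshold without Apoe-/- replicate 2, and 2.41 without Apoe-/- replicate 1. No library of either gene overlapped between the groups, but the Serpina3g gap rested on 1 of the 2 controls. Without the filter on low values Serpina3g was not past the threshold either.

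Mt2 in this gate lay the other way without passing (1.57 and 1.56 against 0.959, 1.69 and 0.766, -0.52 ± 0.17), as did Mt1 (3.75 and 3.31 against 2.86, 3.24 and 3.46, -0.15 ± 0.11). Serpina3n (0.709 and 0.485 against 0.759, 0.730 and 0.763) did not pass. In cells without the 5 fibroblast markers Lcn2 was 0.272 and 0.127 against 0.467, 0.311 and 0.475, still apart. Fibroblast markers in this gate summed to 6.01 to 6.43 against 6.56 to 10.6 CP10K (3 of 8 higher without overlap), and macrophage markers, whose cells held Serpina3g, to 0.254 to 0.373 against 0.669 to 1.22 (3 of 8). The part of the macrophage markers in the Serpina3g difference was not tested. Lymphatic endothelial markers moved with Lcn2 in this gate (0.00449 to 0.0384 against 0.264 to 0.573 CP10K over 5 markers). In the 14 lymphatic-like cells, gated apart and all from libraries labelled Oasl1-/-Apoe-/-, Lcn2 was at 7.61 CP10K, and the part of such cells in the endothelial difference was not tested. NK/T markers, whose cells had the most Serpina3g, summed to 0.0626 to 0.101 against 0.0511 to 0.110 CP10K over 8 markers, with Cd8a and Cd2 at 0. These low sums overlapped between the groups, and the part of such cells was not tested either.

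In macrophage-like cells Serpina3g was the 1 of 4 tested members past the threshold, higher, where 10.5% of 7909 genes were higher and 6.39% lower. It stood at 0.0408 and 0.214 CP10K against 0.509, 0.406 and 0.446 (1.70 ± 0.28), and the groups did not overlap. Positive cells made up 1.81% and 1.60% against 8.20%, 8.80% and 8.64%, from 12 and 16 UMIs against 217, 176 and 180. Without Apoe-/- replicate 1 the log2 difference was 0.93, and without replicate 2 it was 2.47. NK/T markers summed to 0.0798 to 0.0804 against 0.0793 to 0.114 in this gate. Mt1 (3.26 and 3.66 against 3.43, 4.14 and 3.84), Mt2 (0.380 and 0.462 against 0.420, 0.460 and 0.427) and Saa3 overlapped, and the members' median was 0.09, beside 0.05 over all genes.

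In NK/T-like cells Mt1 was past the threshold and higher, 1 of 3 members tested, where 1.44% of 8107 genes were higher and 0.53% lower. It stood at 0.237 and 0.297 CP10K against 1.196, 1.14 and 0.853 (1.80 ± 0.33), from 4 and 5 UMIs against 39, 52 and 27. It was not past without replicate 1 labelled Oasl1-/-Apoe-/- (1.72). These are levels near the limit of detection, with 4.04% and 5.49% of cells positive against 9.82%, 11.5% and 12.7%.

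Smooth muscle markers, whose own cells had much Mt1, lay the other way in the NK/T gate (4.47 to 6.22 against 2.72 to 3.33 CP10K over 8 markers). Fibroblast markers moved with it (0.121 to 0.159 against 0.555 to 1.63 over 8 markers, with Pdgfra, Dpt and Col14a1 at 0), as did macrophage markers (0.0314 to 0.297 against 0.737 to 1.21 over 8, with Csf1r, Mrc1 and Fcgr1 at 0). Their part was not tested. Serpina3g, highest in this type, stood at 1.47 and 1.68 against 2.13, 2.91 and 2.44 (0.64 ± 0.21), apart but not past the threshold, and Mt2 overlapped. The median over the 3 members tested was 0.69, beside 0.07 over all genes.

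In dendritic-like cells none of 3 tested members was past the limma threshold, where 0.259% of 7343 genes were higher and 0.0953% lower. By limma-voom it was 0 as well, and 1 had an unadjusted p under 0.05. Serpina3g stood at 0.392 and 0.106 CP10K against 0.633, 1.52 and 0.280, and Mt1 at 2.15 and 2.01 against 1.41, 3.17 and 2.27. With 28 to 37 cells per library these groups overlapped, and the median of the members was 0.06, beside 0.05 over all genes.

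The genotype difference was also set against that in smooth muscle-like cells, on differences within libraries. Since the members were selected on these values, the counts are a description and nothing is read from them. Of 13 pairs of member and type, 0 passed the limma threshold, 6 were under 0.05 without adjustment and 9 passed in limma-voom on summed UMIs. Over all genes 0.0236% of 8477 passed for fibroblast-like, 0.0121% of 8239 for endothelial-like and 4.32% of 6875 for macrophage-like cells. The largest among the members was Saa3 in fibroblast-like cells (-1.77 ± 0.61), followed by Lcn2 there (-1.52 ± 0.32), Saa3 in macrophage-like cells (-1.51 ± 0.85) and Mt2 in endothelial-like cells (-0.95 ± 0.34).

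Over all cells of a library, 5 of 7 members were past the threshold, all higher, where 20.5% of 9836 genes were higher and 20.6% lower. Hp stood at 0.119 and 0.133 CP10K against 0.515, 0.633 and 0.413 (1.68 ± 0.13), Serpina3g at 0.107 and 0.0771 against 0.328, 0.376 and 0.343 (1.496 ± 0.095) and Lcn2 at 0.577 and 0.497 against 1.42, 1.26 and 1.19 (1.19 ± 0.08). Serpina3n (0.86 ± 0.13) and Mt2 (0.31 ± 0.09) were past as well, Mt2 not without Apoe-/- replicate 1 (0.23) or without replicate 2 (0.25) or 3 (0.27) labelled Oasl1-/-Apoe-/-, and Saa3 (0.66 ± 0.39) and Mt1 (0.13 ± 0.07) overlapped. The median over the members was 0.86, beside -0.03 over all genes.

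Part of these whole-library differences went with cell shares. Shares of the 6 compared types, the ungated cells and the smaller gates as a joint class were set to their means over the 5 libraries. This calculation was added after the data were seen. The log2 differences were 1.09 for Hp, 0.92 for Serpina3g and 0.43 for Lcn2, still past the threshold. Serpina3n (0.40) and Mt2 (0.22) were then not past, Mt1 was at 0.19 and Saa3 was at -0.49. The mix within the class of smaller gates was left as it was. Cartilage-like cells, which held Hp and Lcn2, numbered 3 in the Apoe-/- libraries and 22 in the others. The 14 lymphatic-like cells, which held Lcn2, were all in libraries labelled Oasl1-/-Apoe-/-. The part of this mix in the remaining differences was not tested.

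The companion genes were not members and are given with limma adjusted p-values. Counts of these lists are to be read beside the share of all genes past the threshold in the same type, given above. Of the inducers and signalling genes, Il6, the main inducer of the acute phase, was higher in smooth muscle-like cells (0.0222 and 0.0419 against 0.102, 0.166 and 0.0967 CP10K, log2 difference 1.05 ± 0.15, adjusted p = 0.00015) and in endothelial-like cells (0 and 0.0325 against 0.336, 0.164 and 0.173, 2.04 ± 0.35, adjusted p = 1.66e-05). In fibroblast-like cells, its highest type of these, Il6 overlapped (0.817 and 1.66 against 0.901, 2.16 and 1.70). Cebpd, which encodes a C/EBP factor, was lower there (12.7 and 10.2 against 7.15, 6.92 and 6.13, -0.75 ± 0.11, adjusted p = 0.00126), and was the 1 of 16 tested genes of the list past the threshold in that gate. It was higher in macrophage-like cells (0.84 ± 0.17, adjusted p = 0.00166), as was Socs3, a feedback inhibitor of STAT3 signalling (0.74 ± 0.07, adjusted p = 2.98e-07). The list had 3 of 15 tested genes higher in smooth muscle-like cells (median 0.14, beside 0.01 over all genes) and 4 of 14 higher and 1 lower in macrophage-like cells (median 0.10, beside 0.05).

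Other acute-phase genes were mostly too low to test, and of the 20 listed 0 to 9 passed the filter in a type. In smooth muscle-like cells all 4 tested were past and higher, C3 (1.01 ± 0.09, adjusted p = 1.06e-06), Steap4 (0.60 ± 0.10, adjusted p = 0.000858), Itih4 (0.31 ± 0.05, adjusted p = 0.00102) and Cp, the gene of ceruloplasmin (0.34 ± 0.09, adjusted p = 0.0223). Cp did not pass without Apoe-/- replicate 1 (0.28) or without replicate 1 (0.33) or 2 (0.30) labelled Oasl1-/-Apoe-/-. The list's median was 0.47, beside 0.01 over all genes. C3 in fibroblast-like cells, where it was highest of the 6 gates, did not pass (8.28 and 8.83 against 8.27, 11.8 and 8.56). Lbp, which hands bacterial lipopolysaccharide to its receptor, was higher in endothelial-like cells (1.78 ± 0.27, adjusted p = 9.75e-07). Lbp was itself among the 10 top genes of the lymphatic-like cells, whose markers moved with it as given above for Lcn2, and their part was not tested. Serpina3f, a close copy of Serpina3g in the same cluster, was higher in endothelial-like (1.33 ± 0.39, adjusted p = 0.0372) and NK/T-like cells (2.22 ± 0.62, adjusted p = 0.0466). It did not pass by limma-voom in either type, nor without any 1 library in NK/T-like cells (1.82 to 2.76), nor without any but replicate 1 labelled Oasl1-/-Apoe-/- in endothelial-like cells (1.08 to 1.39).

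Of the partners and targets, Ctsl (-1.23 ± 0.06, adjusted p = 1.58e-10) and Ctsb (-0.34 ± 0.04, adjusted p = 2.45e-05), cathepsins of the kind Serpina3g inhibits, were lower in macrophage-like cells, where Serpina3g was higher. Hmox1, which breaks down haem, was lower too (-0.76 ± 0.12, adjusted p = 0.000147, and -0.47 without Apoe-/- replicate 1), so that 4 of 7 tested genes of the list were past and lower. The list's median was -0.34, beside 0.05 over all genes. Cd163, the receptor of the haptoglobin complex, was listed at 0 in both Apoe-/- libraries of that gate and at 0.0162, 0.0285 and 0.0326 CP10K in the others, below the filter. Gzmb, the target of Serpina3n, was below the filter in fibroblast-like cells. In NK/T-like cells Gzmb stood at 8.893 and 6.531 CP10K against 7.192, 7.272 and 8.797, and the groups overlapped. Over all cells of a library it stood at 0.2276 and 0.1388 against 0.351, 0.4199 and 0.4642. That difference was past the threshold (1.004 ± 0.1468, adjusted p = 0.000352), but cell shares enter whole-library values.

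Of the metal list, 10 genes were tested in smooth muscle-like cells, where Mt1 and Mt2 were higher. Sod1 alone passed and was lower (-0.23 ± 0.07, adjusted p = 0.0499), which it did not without Apoe-/- replicate 2 (-0.12) or any 1 library labelled Oasl1-/-Apoe-/- (-0.27 to -0.19). The list's median was 0.02, beside 0.01 over all genes. Mtf1, the metal-sensing factor, stood at 0.123 and 0.158 CP10K against 0.147, 0.127 and 0.110, and Slc30a1, a zinc exporter that it controls, at 0.0634 and 0.0834 against 0.0806, 0.0782 and 0.0739. Both overlapped. In macrophage-like cells the ferritin genes Ftl1 (-0.37 ± 0.04, adjusted p = 5.55e-06) and Fth1 (-0.22 ± 0.04, adjusted p = 0.00041) were lower.

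Of the glucocorticoid list Fkbp5 was higher in smooth muscle-like cells (0.37 ± 0.10, adjusted p = 0.0337), the 1 of 7 tested there that passed. It did not pass without Apoe-/- replicate 1 (0.26) or any 1 library labelled Oasl1-/-Apoe-/- (0.33 to 0.39). In macrophage-like cells 3 of 6 were higher, among them Tsc22d3 (0.62 ± 0.08, adjusted p = 4.2e-05), and Sgk1 was lower (-0.60 ± 0.07, adjusted p = 5.79e-06). There 10.5% of all genes were past and higher and 6.39% lower.

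The interferon gamma list moved in one direction. It was past and higher for 4 of 4 tested genes in smooth muscle-like, 4 of 6 in fibroblast-like, 4 of 6 in endothelial-like, 6 of 6 in macrophage-like, 2 of 4 in NK/T-like and 1 of 6 in dendritic-like cells. In these types, in the same order, 5.93%, 2.21%, 2.06%, 10.5%, 1.44% and 0.259% of all genes were past and higher. The list's median was 0.56, 1.43, 1.16, 1.75, 1.51 and 1.35 in that order. Over all genes the median was 0.01, 0.02, -0.01, 0.05, 0.07 and 0.05. Iigp1, a GTPase of cell-autonomous defence, was higher in fibroblast-like (2.02 ± 0.21, adjusted p = 0.000167) and endothelial-like cells (1.80 ± 0.18, adjusted p = 8.17e-12), and Cxcl9, a T cell attractant, in macrophage-like (1.62 ± 0.18, adjusted p = 4.02e-06) and fibroblast-like cells (1.76 ± 0.34, adjusted p = 0.0104).

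Genes known to respond to tissue dissociation moved with the members in some gates. In NK/T-like cells, where Mt1 was higher, 4 of 10 were past and higher, led by Hspa1a (1.72 ± 0.13, adjusted p = 7.36e-13). In macrophage-like cells 10 of 10 were past and higher, where 10.5% of all genes were. The share of all genes in NK/T-like cells was 1.44%. In smooth muscle-like cells Hspa1a (0.39 ± 0.05, adjusted p = 6.79e-05) and Hspa1b were higher, and Jun and Atf3 lower. In endothelial-like cells 2 were higher and 5 lower, and in fibroblast-like cells 2 were lower. The part of sample handling in the members' differences was not tested.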

How the data were processed

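Single-cell RNA was measured in 5 libraries of the aortic arch, 2 Apoe-/- and 3 labelled Oasl1-/-Apoe-/-. Per the submitters' notes, reads were processed with Cell Ranger 3.1.0 on mm10 and Seurat 4.0.3. The authors removed doublets, pooled the libraries in 1 table and deposited the natural log of 1 plus UMIs per 10000 UMIs of each cell. UMIs were recovered from the steps of these deposited values. A gene found in under 3 cells of some library was at 0 in that library. A level of 0 in the values of a gate is written as listed at 0, whatever its source. Saa3, Lcn2 and Serpina3n had UMIs in other cells of each library, so their zeros in a gate are counts of that gate.

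Cells were gated by 16 marker lists, with at least 2 markers detected and a lead of 0.2 in mean natural log value over the next list (limits set after seeing the data). Library means of CP10K were compared by limma 3.58.1 in R 4.3.3 as log2(CP10K + 0.05), with an empirical Bayes trend, over genes with a mean of at least 0.05, in types with at least 20 cells in every library and in the whole library. Benjamini-Hochberg adjustment ran over all genes of a type. Limma-voom on summed UMIs was an alternative, since the deposited values are not counts. Differences between types were tested on differences within a library. Shares at equal depth used cells thinned to 1000 UMIs, which left out 556 shallower cells.

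Libraries held 16959976 to 19813039 UMIs. Wilson intervals (95%) cover counting error only. No source says that libraries of a genotype came from separate mice, so p-values measure only the spread between libraries. Members, companion lists and tests were chosen with earlier results of these data known. Of each companion list up to 3 genes with the lowest adjusted p among those past the threshold in a type were named, and 3 genes per member by likeness. Jun and Cp in smooth muscle-like cells, Il6 and C3 in fibroblast-like cells, and Mtf1, Slc30a1, Cd163 and Gzmb were named after their values were seen. In simulated data on fibroblast-like cells (9426 genes), log2 changes of 1 were called in 86% (higher) and 68% (lower) of 50 changed genes each. Of the unchanged genes 24 were called. The changed genes were not drawn from the lowest levels, and all genes had the same simulated dispersion. These shares thus do not hold for low genes or for genes with a wide spread between libraries. Coordinates are from GENCODE and sequences from RefSeq, read with Biopython 1.88. No protein sequences were used here, and values of some single genes are not reported here.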

Additional observations from a re-analysis of the deposited data

Results flagged for a closer look

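Of the companion genes reported here, 11 differed in their genotype difference between macrophage-like and smooth muscle-like cells by limma on differences within libraries, with adjustment over 6875 genes, of which 4.32% passed. Each value is the log2 difference in macrophage-like cells minus that in smooth muscle-like cells. Of the stress genes, Hspa1a differed by 1.02 (adjusted p = 0.0215, 1.41 against 0.39), Atf3 by 0.90 (adjusted p = 0.017, 0.60 against -0.30), Dusp1 by 0.76 (adjusted p = 0.0206), Fos by 0.75 (adjusted p = 0.0267) and Jun by 0.69 (adjusted p = 0.0454, 0.38 against -0.31). For all 5 the genotype difference, not the level, lay higher in macrophage-like than in smooth muscle-like cells.

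Socs3, of the inducer list, differed by 0.63 (adjusted p = 0.0267). The difference was negative for the cathepsin genes Ctsl (-1.17, adjusted p = 0.00652) and Ctsb (-0.54, adjusted p = 0.0323, -0.34 against 0.19). It was also negative for Hmox1 (-1.13, adjusted p = 0.0196, -0.76 against 0.37), Sgk1 (-0.70, adjusted p = 0.0286) and Txnrd1 (-0.64, adjusted p = 0.0481). Groups of 2 and 3 libraries were too small for a test of single outlying libraries. Values of these differences with 1 library left out are not reported here, so their dependence on a single library is not shown.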

How the results depend on the processing

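With 2 against 3 libraries of pooled mice, 1 library decided several values, and low genes rested on few UMIs. In the 6 types 10 pairs of member and cell type were past the threshold. Counted anew over all pairs, 5 passed without the filter on low values and 8 to 13 when libraries were left out in turn. Over 13 alternatives the log2 difference ranged from 1.28 to 1.81 for Hp in fibroblast-like cells. For Lcn2 it ranged from 0.65 to 1.52 in smooth muscle-like and from 0.71 to 1.71 in endothelial-like cells. These ranges describe members selected on this same contrast and lend it no support. Leaving out libraries gave 64 to 89 pairs for the companion genes (87 in all libraries), 4 to 6 members (5) and 38 to 47 companion genes (43) in the whole library, and 0 to 0 member differences between types. Differences between types gave 5 past the threshold with an offset of 0.5, 9 by limma-voom and 1 with the mean of deposited log values. Reweighted shares, an alternative chosen after seeing the data, left 3 members and 26 companion genes in the whole library.

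Among whole-library values past the threshold, directions reversed with reweighted shares for Cd36 (-0.21), Ctsb (-0.22), Egr1 (0.0311), Fth1 (-0.11), Ftl1 (-0.28), Itih4 (0.28), Nfkbia (-0.0242), Tnf (-0.11) and Txnrd1 (-0.14), and with the mean of deposited log values for Fth1 (-0.0101) and Mt2 (-0.0309). Saa3, not past it, went from 0.66 to -0.49 with reweighted shares. For these, the cause was not tested. Of 613 values of member differences under the alternatives 446 moved by less than the spread between libraries, and of 1777 for companion genes 226 lost the threshold.

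The replicate numbers share no stated source, and libraries with the same number correlated at r = 0.05 and 0.15 over 2752 genes in their deviations from the group means. Libraries with different numbers correlated at -0.149, 0.0685, -0.0506 and -0.0685. Deviations of 2 control libraries mirror each other, so each value recurs with the opposite sign and these values cannot decide on pairing. With a replicate block 12 member pairs, 89 companion pairs, 6 whole-library members, 39 whole-library companion genes and 0 differences between types passed.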
